A study of Mus musculus with 6 samples.

Results

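The 10 genes of bile acid uptake, sensing and export and of sterol efflux studied here were followed in total RNA-Seq of colonic crypts from a mouse model of hereditary colorectal cancer. They were chosen by name from the gene column of the expression table, and 10 of the 10 names were present among its 18049 genes. The control group was 3 mice given the vehicle, 20% captisol in PBS, and the treated group was 3 mice given GSK503, an inhibitor of the histone methyltransferase EZH2, at 200 μg/kg by tail vein injection. Mice of both groups shared the C57BL/6J background, LoxP-flanked alleles of a gene deleted by a *Villin-Cre* transgene, which acts in the intestinal epithelium, a humanized *TgfβRII* knock-in and a Western-style diet. Each library came from 1 mouse, and the age at crypt isolation is not given in the sources used here.

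The estimated depth was between 1.08e+08 and 1.35e+08 counts. A value below is an RSEM estimated count as TMM-scaled CPM, and 3 counts are worth between 0.0228 and 0.0271 of it, a floor that covers counting error only. The epithelial genes *Krt8* and *Epcam* lay between 4505 and 6090 and between 1802 and 2032, and *Hoxb13*, a gene of the distal gut, was at 98.0 or above in every library. Sex-linked genes separated the groups: *Xist* was at most 0.936 in the control mice and at least 825 in those given GSK503, and the Y-linked gene *Eif2s3y* was at least 51.3 in every control mouse and 0 in all 3 treated mice. Sex and treatment therefore cannot be told apart in any comparison of these libraries. *Ezh2*, the gene of the drug's target, was 46.7, 37.4 and 46.5 in control mice and 36.6, 35.2 and 36.3 in treated mice (limma adjusted p = 0.291).

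Bile acids are made from cholesterol in the liver, and most of those released into the gut are taken back in the ileum. *Slc10a2* encodes the apical uptake carrier ASBT, *Fabp6* the cytosolic carrier protein, and *Slc51a* and *Slc51b* the α and β subunits of the basolateral exporter OSTα/β. *Nr1h4* encodes the nuclear bile acid receptor FXR, which controls several of these genes, and *Gpbar1* the cell surface bile acid receptor TGR5. *Abcg5* and *Abcg8* encode the subunits of the heterodimer that pumps sterols back into the lumen, *Abca1* passes cholesterol to apolipoprotein A-I, and *Nr1h3* encodes LXRα, an oxysterol-activated receptor that drives the 3 pump genes. In the colon, these genes meet the bile acids that escape the ileum.

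*Abcg5* (ENSMUSG00000040505) and *Abcg8* (ENSMUSG00000024254) lie head to head on chromosome 17 of GRCm39, *Abcg5* on the minus strand from 84964851 to 84990494 and *Abcg8* on the plus strand from 84983730 to 85007765. The annotated genes overlap on opposite strands, and whether the counting used strand is not given in the sources used here, so part of the reads could have been assigned to either gene. RefSeq places 109 bases between their starts, and GENCODE places 12 between the starts of the canonical transcripts. The stretch between the RefSeq starts, chr17:84990440-84990548 on the plus strand, is shown because the genes share it, with the letters AGATAA, the core of a GATA factor motif, in capitals on either strand.
Abcg5-Abcg8 interval: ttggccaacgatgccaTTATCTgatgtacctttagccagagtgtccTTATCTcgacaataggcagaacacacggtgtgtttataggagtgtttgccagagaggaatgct
The 2 matches do not overlap. At least 1 match was found in 3.98% of 32817 RefSeq promoters over the same length before the start, and at least 2 in 0.186%. These letters were chosen after the sequence was seen, and a match describes the letters and not a bound factor. For *Abca1* (ENSMUSG00000015243, chromosome 4, 53030787 to 53159900, minus strand), the 100 bases before the RefSeq start, chr4:53159896-53159995 on the minus strand, are shown because LXR is known to act near this start.
Abca1 upstream: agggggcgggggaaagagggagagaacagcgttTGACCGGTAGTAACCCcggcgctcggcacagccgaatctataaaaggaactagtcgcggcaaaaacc
Capitals mark the closest match on either strand to the LXR motif DR4, 2 AGGTCA repeats with any 4 bases between them. It differs from the motif at 3 of the 12 fixed letters, and a match this close was found in 7.02% of RefSeq promoters over the same length, while the *Abcg5*-*Abcg8* interval held none.

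None of the 10 genes differed between the groups at an adjusted p below 0.05 by limma on log2(value + 0.1), where 0.642% of the 16670 genes tested did. The log2FC was below 0 for 7 genes and above 0 for 3, beside 51.1% and 48.9% of all genes. *Abcg5* alone passed 0.1, where 1.97% of all genes did, and its direction was lower, as it was for 0.558% of all genes. At an unadjusted p below 0.05 there were 7 of the 10, 6 lower and 1 higher, against 13.3% of all genes (6.27% lower and 7.06% higher), and limma-voom also gave 0 of 10 at an adjusted p below 0.05. The 3 treated mice lay below the 3 control mice for *Abcg5*, *Abcg8*, *Abca1* and *Nr1h4*, a pattern that 9.22% of all genes showed. They also did for *Gpbar1*, which is set apart because of how it passed the filter. None of the 10 lay above without overlap, against 9.84% of all genes. The median log2FC of the 10 was -0.45, beside -0.01 for all genes tested. All 10 passed the filter of at least 0.1 in at least 3 mice, but *Gpbar1* did so through the control mice alone, so it could only pass by being higher there. It is included in the counts of lower genes and in the median above, where its direction was fixed by the filter. The smallest p of an exact two-sided permutation test in this design is 0.1, and the added 0.1 pulls the log2FC of low genes towards 0.

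**Figure D1:**
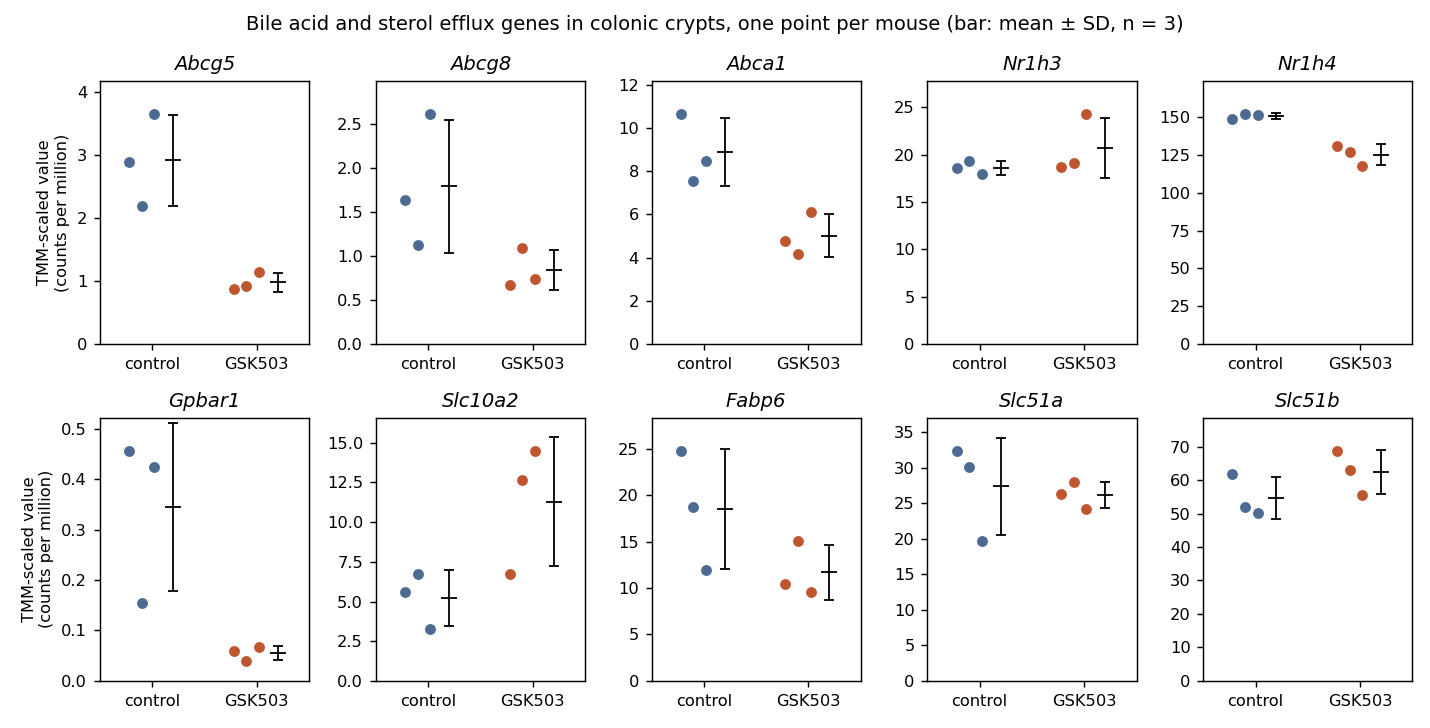
Values of the 10 genes in each mouse, as TMM-scaled CPM on axes that start at 0, with control mice in blue, GSK503-treated mice in orange and the mean ± SD of 3 mice as a black bar. The groups do not overlap for *Abcg5*, *Abcg8*, *Abca1*, *Nr1h4* and *Gpbar1*, and the highest *Slc10a2* values, 12.6 and 14.5, belong to treated mice.

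The sterol pumps had lower means after GSK503. *Abcg5* was 2.89, 2.20 and 3.65 in control mice 1, 2 and 3. The treated mice 1, 2 and 3 had 0.873, 0.924 and 1.15, and none of them reached the lowest control mouse. The mean was 2.97-fold higher in control mice (2.91 ± 0.727 against 0.982 ± 0.146, SD, n = 3 mice each), a log2FC of -1.46 with a 95% interval from -2.08 to -0.83 (standard error 0.28, limma adjusted p = 0.0525). These values rest on 243 to 464 estimated counts in control libraries and 103 to 138 in treated libraries. The call at 0.1 was lost without control mouse 1 (limma adjusted p = 0.128), control mouse 3 (0.170), treated mouse 1 (0.142) or treated mouse 2 (0.236). Without treated mouse 3 the limma adjusted p was 0.0468.

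*Abcg8*, the partner subunit, was 1.64, 1.13 and 2.62 in control mice and 0.678, 1.10 and 0.741 in treated mice. The groups did not overlap, but control mouse 2 and treated mouse 2 differed by less than the spread within either group. The log2FC was -0.97 (95% interval -1.77 to -0.16, limma adjusted p = 0.289), and without control mouse 3, the highest, it was -0.67. Within a library, the ratio of *Abcg5* to *Abcg8* was 1.76, 1.94 and 1.39 in control mice and 1.29, 0.841 and 1.55 in treated mice. The ratios overlapped, with a log2 difference of -0.50 (exact two-sided permutation test, p = 0.2) that was -0.25 without treated mouse 2 and -0.69 without treated mouse 3. A change in the balance of the subunits was therefore not shown.

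*Abca1* was 10.6, 7.56 and 8.47 in control mice and 4.77, 4.15 and 6.11 in treated mice. All 3 treated mice were lower, and treated mouse 3 came closest to the control mice. The log2FC was -0.82 (95% interval -1.26 to -0.38, standard error 0.20, limma adjusted p = 0.102). Leaving out single mice gave values from -0.97 without treated mouse 3 (limma adjusted p = 0.0555) to -0.68 without control mouse 1 (0.251), and the adjusted p was highest without treated mouse 2 (0.389). Macrophages also use *Abca1*, and the summed level of 11 macrophage genes was 39.7, 61.3 and 43.1 in control mice and 24.3, 19.4 and 82.6 in treated mice. Treated mouse 3 was the highest of the 6 mice for macrophage genes and the highest treated mouse for *Abca1*. It was also the highest of the 6 for summed smooth muscle (127), fibroblast (395) and endothelial genes (9.78). For B cell and T cell genes it was not the highest. *Adgre1* and *Csf1r*, which mark macrophages, were at most 2.11 and 3.35, and the log2FC was below 0 for 10 of the 11 genes, none at a limma adjusted p below 0.1. The part of macrophages in the *Abca1* difference was not tested. Leaving out treated mouse 3 cannot test it, since the treated mice that remain are those with the lowest macrophage sums. In bulk crypts fewer cells of a type and less RNA per cell cannot be told apart.

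*Nr1h3*, whose product LXRα acts on the pump genes, was 18.6, 19.4 and 17.9 in control mice and 18.7, 19.1 and 24.3 in treated mice. The groups overlapped, and the single high value was that of treated mouse 3. Its log2FC was 0.14 (95% interval -0.13 to 0.41, limma adjusted p = 0.656). The ratio of *Nr1h3* to *Nr1h2*, the gene of LXRβ, lay between 0.274 and 0.307 in control mice and between 0.268 and 0.337 in treated mice, a log2 difference of 0.05 (exact two-sided permutation test, p = 0.7) that was -0.04 without treated mouse 3.

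**Figure D2:**
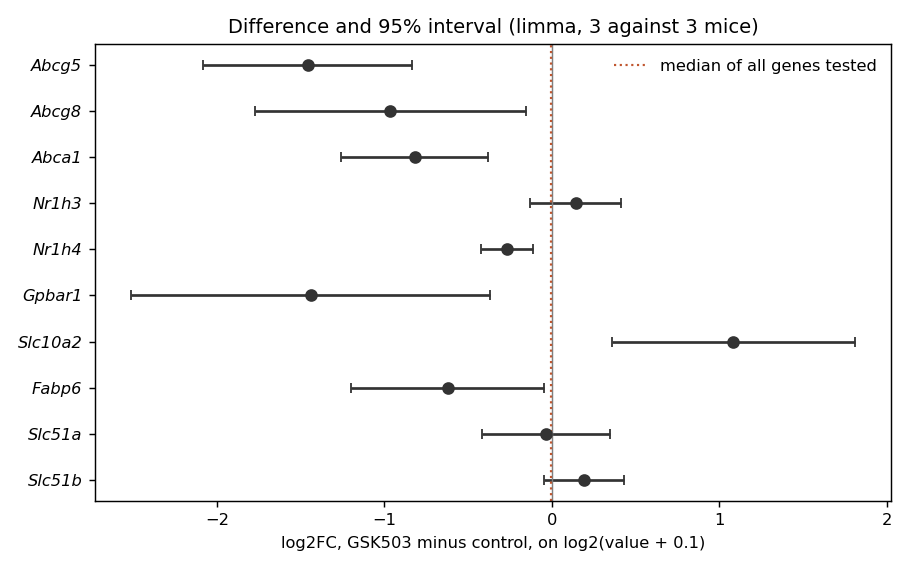
Difference between GSK503-treated and control mice for each gene as log2FC on the log2(value + 0.1) scale, with its 95% interval from limma (n = 3 mice each). The intervals of *Abcg5*, *Abcg8*, *Abca1*, *Nr1h4*, *Gpbar1* and *Fabp6* lie below 0 and that of *Slc10a2* above it before adjustment over the 16670 genes, and the dotted line at -0.01 is the median of all genes.

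Of the bile acid receptor genes, *Nr1h4* also had a lower mean, while the direction of *Gpbar1* was fixed by the filter. *Nr1h4* (ENSMUSG00000047638, chromosome 10, 89289742 to 89369497, minus strand) was 148, 152 and 151 in control mice and 131, 127 and 118 in treated mice. The control mice were close to each other and all lay above the treated mice. The difference was small, with 151 ± 1.93 against 125 ± 6.75 (SD, n = 3 mice each) and a log2FC of -0.27 (95% interval -0.42 to -0.11, limma adjusted p = 0.131). When the libraries were scaled by their size alone, the log2FC of *Nr1h4* was -0.38 (limma adjusted p = 0.0302), while the median of all genes moved from -0.01 to -0.12, so about the same difference from the median remained.

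*Gpbar1* was close to the floor. The control mice had 0.457, 0.154 and 0.425 and the treated mice 0.0593, 0.0398 and 0.0666, or 60, 17 and 54 estimated counts against 7, 5 and 8. No treated mouse reached the lowest control mouse, control mouse 2. The log2FC was -1.44 (95% interval -2.51 to -0.37, limma adjusted p = 0.230), but it was -0.59 with a pseudocount of 0.5 and -2.32 with 0.01, since the pseudocount is as large as the values. The mean was 6.25-fold higher in control mice without a pseudocount. TGR5 is known in enteroendocrine L cells and in macrophages. The summed level of 8 enteroendocrine genes was 244, 264 and 213 in control mice and 136, 173 and 137 in treated mice. The groups did not overlap for this sum, the log2FC was below 0 for all 8 genes, and *Chga*, *Chgb* and *Gcg* fell (log2FC -0.70, -0.85 and -0.72, limma adjusted p = 0.0471, 0.0215 and 0.0393, where 0.144% of all genes were called lower). Without overlap, 5 of the 8 were lower, against 9.22% of all genes. The list was chosen with earlier results of these data known, so these shares describe it and do not test it. The hormone genes *Pyy* and *Insl5* overlapped (log2FC -0.12 and -0.34, limma adjusted p = 0.791 and 0.344), as did *Cck*. The macrophage sums given with *Abca1* overlapped between the groups. The part of enteroendocrine cells or macrophages in the *Gpbar1* difference was not tested.

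**Figure D3:**
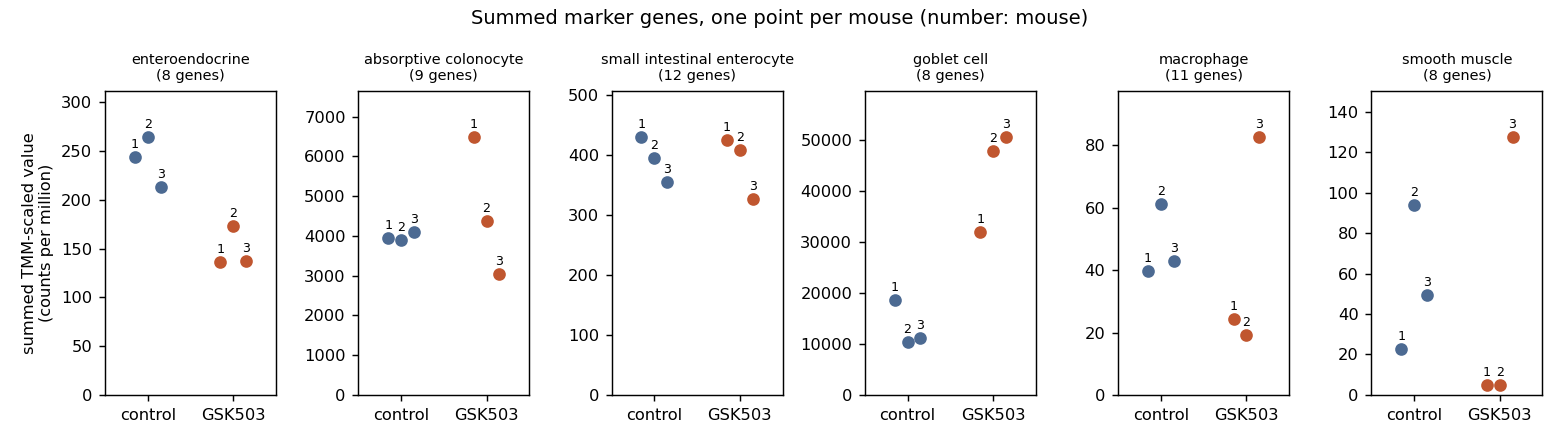
Summed TMM-scaled values of 6 lists of cell type markers in each mouse, on axes that start at 0, with the mouse number above each point. Enteroendocrine sums were lower and goblet cell sums higher in every treated mouse, while treated mouse 3 was the highest for macrophage (82.6) and smooth muscle genes (127) and treated mice 1 and 2 were the lowest.

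The means of the uptake and carrier genes lay on opposite sides of the control mice. *Slc10a2* (ENSMUSG00000023073, chromosome 8, 5133219 to 5155351, minus strand), the apical uptake carrier, was 5.63, 6.76 and 3.30 in control mice and 6.72, 12.6 and 14.5 in treated mice. It was the only one of the 10 with a mean more than 2-fold higher after GSK503 (5.23 ± 1.76 against 11.3 ± 4.06, SD, n = 3 mice each). Treated mouse 1 lay within the range of the control mice, so the groups overlapped. The log2FC was 1.08 (95% interval 0.36 to 1.81, limma adjusted p = 0.182). Leaving out single mice gave values from 0.79 (without control mouse 3) to 1.42 (without treated mouse 1).

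*Fabp6* (chromosome 11, 43486872 to 43492469, minus strand), whose protein carries bile acids through the cell, was 24.8, 18.7 and 11.9 in control mice and 10.5, 15.1 and 9.54 in treated mice. The groups overlapped because control mouse 3 lay below treated mouse 2. The log2FC was -0.62 (95% interval -1.20 to -0.04, limma adjusted p = 0.339), and it was -0.38 without control mouse 1 and -0.90 without control mouse 3. Each gene overlapped between the groups, but their ratio within a library did not. The ratios of the other gene pairs compared here overlapped, and the permutation p was not adjusted for the number of pairs. Among single genes, 19.1% of those tested did not overlap in either direction. The ratio of *Slc10a2* to *Fabp6* was 0.227, 0.361 and 0.276 in control mice and 0.642, 0.838 and 1.52 in treated mice, and all treated mice were higher. The log2 difference of this ratio, which does not depend on how the libraries were scaled, was 1.73 (exact two-sided permutation test, p = 0.1, the smallest that it can give), and single mice left out moved it no further than 1.38 to 1.997.

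Both genes belong to the ileum more than to the colon, so other small intestinal genes were read beside them. The summed level of 12 small intestinal enterocyte genes overlapped, between 356 and 430 in control mice and between 327 and 426 in treated mice. Most of it was *Slc5a1* (176.6 to 198.8) and *Fabp2* (117 to 203). Without *Slc5a1* it was 231, 202 and 163 in control mice and 248, 218 and 151 in treated mice. Of the 10 that were tested, 3 were lower without overlap (*Lct*, *Slc5a1* and *Enpep*) and 1 was higher (*Apoc2*). The shares of all genes were 9.22% and 9.84%, and no gene of this list had a limma adjusted p below 0.1. *Apoa4* was 0 in 4 libraries, 6.11 in control mouse 2 and 0.0353 in treated mouse 2. *Apoa1* had the same high mouse, with 1.90 in control mouse 2 and at most 0.0848 elsewhere. Control mouse 2 also had the highest *Slc10a2* value of the control mice, and without it the log2FC of *Slc10a2* was 1.30. Summed absorptive colonocyte genes lay between 3900 and 4104 in control mice and between 3036 and 6480 in treated mice, a spread that *Car1* carried. Without *Car1* they were 2160, 1694 and 1919 in control mice and 2461, 2293 and 2082 in treated mice, and the groups overlapped. The summed level of 6 posterior Hox genes was higher in every treated mouse (176, 192 and 203) than in every control mouse (175, 163 and 150), with no single gene at a limma adjusted p below 0.1. This separation rested on *Hoxb13*, without which the sums overlapped (45.6, 40.4 and 52.4 against 55.5, 45.2 and 55.0). Their part in the *Slc10a2* and *Fabp6* values was not tested.

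**Figure D4:**
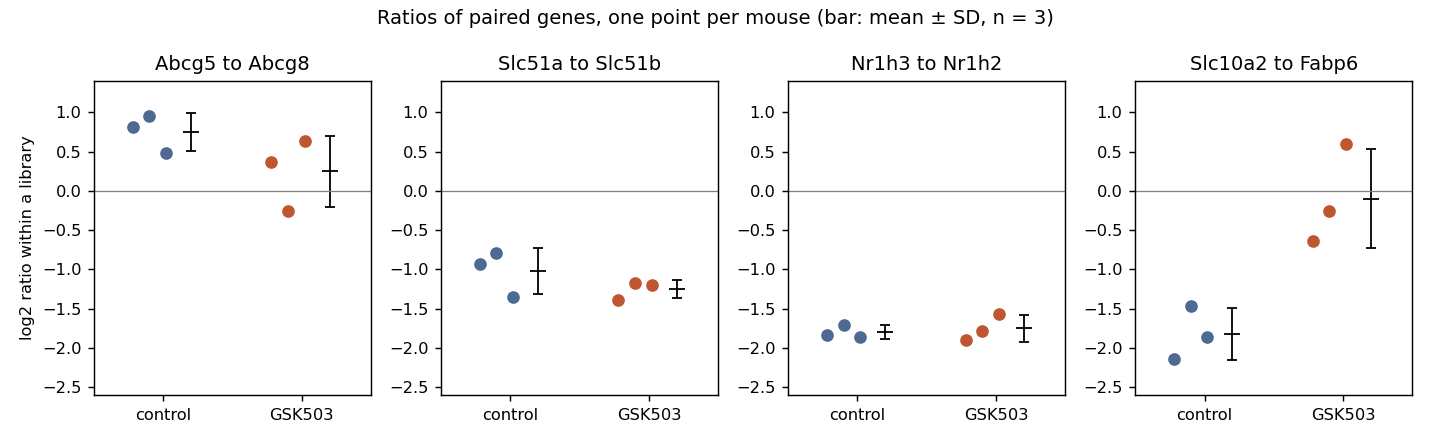
Log2 ratio of paired genes within each library, 1 point per mouse, with the mean ± SD of 3 mice as a black bar and a grey line at equal values. The ratio of *Slc10a2* to *Fabp6* lies between -2.14 and -1.47 in control mice and between -0.64 and 0.60 in treated mice, while the other ratios overlap.

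The exporter genes overlapped between the groups. *Slc51a* was 32.4, 30.1 and 19.7 in control mice and 26.3, 27.9 and 24.2 in treated mice. The treated mice lay inside the range of the control mice, and the log2FC was -0.04 (95% interval -0.42 to 0.35, limma adjusted p = 0.953). *Slc51b* was 61.8, 51.9 and 50.3 in control mice and 68.8, 62.9 and 55.6 in treated mice. Only treated mouse 3 overlapped the control mice, through control mouse 1, and the log2FC was 0.19 (95% interval -0.05 to 0.43, limma adjusted p = 0.485). The ratio of *Slc51a* to *Slc51b* lay between 0.391 and 0.580 in control mice and between 0.383 and 0.444 in treated mice, with a log2 difference of -0.23 (exact two-sided permutation test, p = 0.3). The annotated *Slc51a* and *Slc51b* each overlap a gene on the opposite strand, *Pcyt1a* and *Rasl12*. So do *Slc10a2*, with *Gm63921*, and *Nr1h3*, with *Acp2* and *Gm23390*. *Nr1h3* also overlaps *Gm13783* on its own strand. The limit on read assignment given for *Abcg5* and *Abcg8* holds for these genes too.

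Divided by the length of the canonical GENCODE transcript, the levels of the 10 genes spanned a wide range. The full length of that transcript was used, without correction for other transcripts of the gene, so the order between genes is approximate. In control mice *Nr1h4* was the highest, with 64.9 ± 0.832 per kb (SD, n = 3), followed by *Slc51b* with 54.0 ± 6.15 and *Fabp6* with 31.6 ± 10.99. *Slc51a* (9.91 ± 2.46) and *Nr1h3* (8.79 ± 0.344) came next and overlapped each other. *Slc10a2*, *Abcg5* and *Abca1* lay at 1.26 ± 0.425, 0.921 ± 0.230 and 0.866 ± 0.154 per kb, and neighbours in this order overlapped. *Abcg8* (0.478 ± 0.201) and *Gpbar1* (0.221 ± 0.106) were the lowest. The other steps in this order did not overlap between control mice. In treated mice *Slc51b* (61.7 ± 6.54 per kb) stood above *Nr1h4* (54.0 ± 2.91), and these overlapped. *Slc10a2*, at 2.72 ± 0.979 per kb, then lay above *Abca1* (0.488 ± 0.0974) and *Abcg5* (0.310 ± 0.0463) in every treated mouse.

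Among 12806 genes with a mean of at least 1, those whose pattern over the 6 mice was most like *Abcg5* were *Ltf*, *Muc1*, *Ranbp17*, *Agmo* and *St8sia4*. The root mean square difference of their centred log2 values from those of *Abcg5* was 0.15, 0.19, 0.24, 0.29 and 0.32. *Ltf*, the gene of lactoferrin, was 3.50, 2.64 and 3.34 in control mice and 0.856, 0.996 and 1.36 in treated mice. *Agmo*, an ether lipid monooxygenase, was 18.7 ± 4.94 against 4.66 ± 0.584 (SD, n = 3 mice each). Of the other members, *Abcg8* (0.37, rank 10) and *Abca1* (0.39, rank 17) were close to *Abcg5*, and *Slc10a2* was at rank 12667. The measure uses the same 6 values as the group differences above, so the ranks are not separate evidence of a shared pattern.

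The wider pathways were read from lists of genes. In the FXR list, the log2FC was below 0 for 9 of 15 tested genes and none passed an adjusted p of 0.05 in either direction by limma. The median log2FC was -0.05. Both include *Abcb11* (log2FC -0.85), which passed the filter through the control mice alone. *Abcb11* could therefore only be tested by being higher there, while *Fgf15*, with counts in treated mice alone, was not tested. *Nr5a2*, the gene of LRH-1, which works with FXR in the control of bile acid genes, was 94.3, 99.4 and 97.2 in control mice and 72.3, 76.1 and 81.9 in treated mice (log2FC -0.34, limma adjusted p = 0.0806). *Nos2*, the inducible nitric oxide synthase, was lower by a log2FC of -0.84 (limma adjusted p = 0.0806). For *Klb*, the coreceptor of the ileal hormone FGF15, it was 0.82 (limma adjusted p = 0.272). *Rxra*, whose product pairs with FXR, had a log2FC of -0.10 (limma adjusted p = 0.653).

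In the LXR list, the log2FC was below 0 for 10 of 14 tested genes and none passed an adjusted p of 0.05 by limma, with a median log2FC of -0.20. The genes with the smallest p were *Ncoa1*, a receptor coactivator (log2FC -0.37, limma adjusted p = 0.172), *Arl4c*, a small GTPase gene driven by LXR (-1.10, adjusted p = 0.186), and *Ncor1*, a corepressor (-0.27, adjusted p = 0.270). The log2FC of LXR targets lay on both sides of 0. *Abcg1*, the cholesterol exporter of the same family as *Abcg5*, was 5.78, 4.32 and 5.96 in control mice and 6.60, 8.29 and 7.66 in treated mice, a log2FC of 0.49 (limma adjusted p = 0.283). *Mylip*, a ubiquitin ligase gene driven by LXR, was lower in every treated mouse (-0.46, limma adjusted p = 0.276), and *Srebf1* overlapped (0.13, limma adjusted p = 0.736). *Abcg1*, *Mylip* and *Srebf1* were named after their values were seen.

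In the list of cholesterol synthesis, which supplies the sterols that the pumps remove, the log2FC was above 0 for all 19 genes, with a median log2FC of 0.58, and 6 rose at an adjusted p below 0.05 by limma, as 0.498% of all genes did. These 6 were *Hmgcs1*, *Mvd*, *Idi1*, *Fdps*, *Cyp51* and *Msmo1*, enzymes from the start of the mevalonate pathway to the removal of sterol methyl groups. *Msmo1* was 97.4, 75.1 and 83.1 in control mice and 144, 152 and 141 in treated mice (log2FC 0.78, limma adjusted p = 0.00948). *Srebf2*, the gene of the factor that drives these enzymes, had a log2FC of 0.02 (limma adjusted p = 0.964). These were the only calls over all 5 pathway lists, and their number became 0 without treated mouse 2, 1 without control mouse 2, 2 without treated mouse 1, 3 without control mouse 3 and 12 without control mouse 1. The lists were chosen with earlier results of these data known, so the share of all genes describes these calls and does not test them.

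Of 16 tested genes of cholesterol absorption and trafficking, the log2FC was above 0 for 11 and none passed 0.05 by limma. *Npc2*, which moves cholesterol out of lysosomes, was 112, 105 and 84.0 in control mice and 141, 173 and 146 in treated mice (log2FC 0.62, limma adjusted p = 0.0544). *Npc1l1*, the intestinal cholesterol uptake protein that opposes ABCG5 and ABCG8, lay between 0.0708 and 0.335 in control mice and between 0.208 and 0.339 in treated mice, and the groups overlapped.

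In the list of other bile acid transport and sensing, the log2FC was below 0 for 9 of 15 tested genes, none passed 0.05 by limma and 5 passed 0.1, 3 higher and 2 lower, against 1.41% and 0.558% of all genes. *Nr1i3*, the gene of the xenobiotic receptor CAR, was 0.690, 0.990 and 0.677 in control mice and 2.14, 2.38 and 2.65 in treated mice (log2FC 1.504, limma adjusted p = 0.0505). *Vdr*, whose product binds vitamin D and the bile acid lithocholate, was 299, 306 and 342 in control mice and 237, 237 and 251 in treated mice (log2FC -0.38, limma adjusted p = 0.0666). *Cyp24a1*, a vitamin D receptor target that breaks down vitamin D, was 1.93, 1.73 and 1.10 in control mice and 0.534, 0.167 and 0.233 in treated mice (log2FC -2.10, limma adjusted p = 0.0598). *Sult2b1*, a cholesterol sulfotransferase, was higher by a log2FC of 0.81 (limma adjusted p = 0.0598), and *Chrm3*, a muscarinic receptor that some bile acids bind, by 1.62 (limma adjusted p = 0.0665). The exporters *Abcc3* and *Abcb1a* overlapped between the groups, with a log2FC of -0.18 and -0.03.

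**Figure D5:**
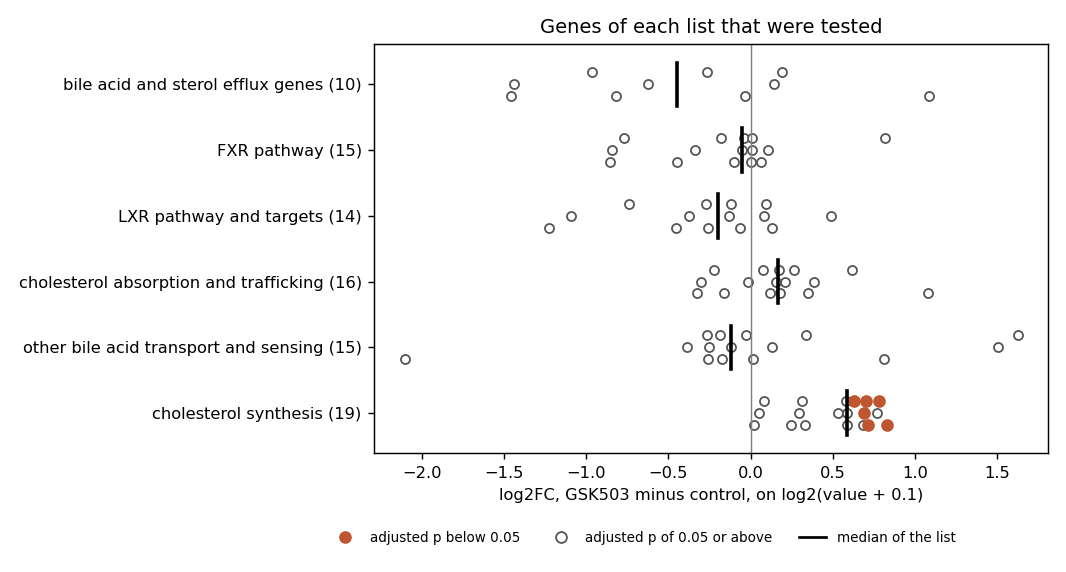
Log2FC of each tested gene, GSK503 minus control, in the 10 bile acid and sterol efflux genes and in 5 pathway lists, with filled points for genes at a limma adjusted p below 0.05, a bar at each list's median and the number of genes in brackets. Filled points appear in cholesterol synthesis alone (6 of 19 genes, median 0.58), beside a median of -0.45 for the 10 genes.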

How the data were processed

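The data were total RNA-Seq libraries (Illumina Stranded Total RNA Prep) of colonic crypts, 1 per mouse, from 3 control and 3 GSK503-treated mice, grouped by the sample titles. For the deposited table, the authors used STAR for alignment to GRCm39, RSEM for estimated counts and edgeR for TMM factors. The signal that the authors deposited is an estimated count as TMM-scaled CPM and not a raw count, and the annotation and any gene filter are not given in the sources used here. The worth of 1 count was taken from the spacing of low values, and 75.2% to 78.0% of values above 0 were whole multiples of it within 0.01 counts. No values above 0 were identical between libraries.

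The groups were compared with limma (version 3.58.1, R 4.3.3) on log2(value + 0.1) with an intensity trend and Benjamini-Hochberg adjustment over the 16670 genes at 0.1 or above in at least 3 mice. A count test could not be the main test for such values. The fit was tested on simulated data. Some items that the naming rule selects, and the name of the deleted gene, are not reported here. Single ratios were compared by exact permutation. The members, the 5 pathway lists and the marker lists were chosen with earlier results of these data known. Genes named are the 10 members, the genes of each pathway list below an adjusted p of 0.05 or the 3 with the smallest p, the 5 most like *Abcg5*, and those said to be named after seeing values. *Rxra*, *Srebf2*, *Npc1l1*, *Vdr*, *Chrm3*, *Abcc3* and *Abcb1a* were also named for their roles after their values were seen, as were the single marker genes. *Abcb11* was named for how it passed the filter. Sequences were taken from RefSeq promoter windows and placed by matching to GRCm39, gene positions from GENCODE. Python 3.11.15, numpy 2.4.6, pandas 2.3.3 and matplotlib 3.10.9 were used.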

Additional observations from a re-analysis of the deposited data

How the results depend on the processing

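Over 18 alternatives (17 for *Gpbar1*, which the stricter filter removed), 172 of 179 member fits kept the direction and the side of an adjusted p of 0.05. As no member was below 0.05 in the main fit, a kept side means only that the gene was still not called. Sizes could still move, as for *Gpbar1*, with a log2FC from -2.49 to -0.59. *Abcg5* passed 0.05 with library size alone (limma adjusted p = 0.0378), robust eBayes (0.0422) and without GSK503-treated mouse 3 (0.0468), and *Nr1h4* with library size alone. *Slc51a* changed sign without control mouse 1 (0.10), control mouse 2 (0.05) or treated mouse 3 (0.02), with a range from -0.26 to 0.10 over mice left out, so its direction rests on single mice. The number of members below 0.05 was 2 with library size alone, 1 with robust eBayes and 0 to 1 over mice left out. Below 0.1 it was 3 with library size alone or without genes above 1% of a library, 2 with epithelial marker scaling, the filter at 1, robust eBayes or limma-voom, 0 without the intensity trend, and 0 to 2 over mice left out. Pathway genes called numbered 12 with library size alone or robust eBayes, 0 without the trend and 0 to 12 over mice left out. Over all genes, 107 calls became 261 with library size alone, 16 without the trend and 30 to 229 over mice left out. Library size alone gave 83 higher and 178 lower calls against 83 and 24. The divisors of this scaling did not overlap between the groups (0.983, 0.978 and 0.976 in control mice, 1.07, 1.08 and 1.04 in treated mice). It therefore lowered every treated value relative to the control values, and the median log2FC of all genes became -0.12. The cause of the unequal divisors was not tested. The replicate numbers are not stated to pair mice. Deviations of same-numbered mice correlated at -0.12, 0.02 and -0.10 across genes, and those of differently numbered mice at -0.17 to 0.26. With 3 mice per group these values can neither show nor exclude a pairing. With the replicate block there were 33 calls over all genes, 1 pathway gene and 0 members below 0.1.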

Other observations

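*Gata4*, the gene of a GATA factor of the small intestine, was 0.388, 0.317 and 0.606 in control mice against 1.75, 1.02 and 0.458 in treated mice (limma adjusted p = 0.405), with overlap. *Hnf4a*, an intestinal nuclear receptor gene, lay between 799.6 and 872 in control mice and between 815 and 839.7 in treated mice. Both were chosen after the *Abcg5*-*Abcg8* interval had been read.

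Some genes of bile acid signalling were too low to be tested. *Fgf15*, the ileal hormone that FXR induces, had no counts in control mice and 0.203, 0.0956 and 0 in treated mice. *Cyp3a11*, a detoxifying enzyme induced by PXR, was 0, 0 and 0.0157 in control mice and 0.0424, 0.0797 and 0.216 in treated mice.

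Of the marker lists of other cell types, the sums of B cell genes (3.77 to 26.4 in control mice, 1.11 to 3.52 in treated mice) and goblet cell genes (10342 to 18616, 32001 to 50482) did not overlap. The fibroblast sum (218 to 276, 268 to 395) was mostly *Gsn*, without which it was 60.2, 77.1 and 61.7 in control mice and 25.1, 33.8 and 113 in treated mice, and the log2FC was below 0 for 5 of its 7 genes. The sums of T cell genes (11.7 to 18.6, 11.03 to 14.3), endothelial genes (3.997 to 6.20, 1.82 to 9.78) and adipocyte genes (2.13 to 3.27, 2.29 to 6.54) overlapped.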
